A study of Bos taurus with 13 samples.

Results

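The milk fat globule membrane proteins were measured here through 3 bovine genes, CD36, BTN1A1 and MUC1, on a cDNA microarray named BMAM. The genes were chosen when earlier results of these data were known. They were picked for what they encode, by their symbols in the platform's annotation, and not by a measured value. They took up 12 of the 3888 spots and 4 of the 1296 printed clones, a clone being 1 cDNA spotted in 3 consecutive places. CD36 had 1 clone (BG691683), BTN1A1 had 2 clones (BE479948 and BG691504) and MUC1 had 1 clone (BG689094). The 4 clones and the 3 genes are all that the rule found, of 706 genes named by 1 symbol.

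The series holds 13 arrays, each of which compared total RNA of 2 sources in 2 colours. On 2 arrays the lactating gland was compared with a pre-pubertal Holstein heifer's gland, of 136 kg on array 1 and of 227 kg on array 2, and 1 array set the gland of a post-pubertal heifer of 310 kg against that of a pre-pubertal heifer of 136 kg. 8 arrays set 1 tissue each (the gland of a 136 kg pre-pubertal Holstein heifer, spleen, thymus, lymph tissue, liver, ileum, adrenal or adipose tissue) against a cell line labelled BovMac, and 2 arrays set that reference line against itself, once under the spelling BovMav. The labels give no age for the other tissues, no stage of lactation, and no statement on whether animals were pooled or the 2 lactating RNA samples came from different cows. A keyword on lactating array 2 calls the heifer post-pubertal, while its title and channel call it pre-pubertal, and the title was followed.

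Milk fat leaves the secretory cell of the mammary gland as a droplet wrapped in the cell's own apical membrane, and the proteins of that wrapping make up the milk fat globule membrane. BTN1A1 encodes butyrophilin, an immunoglobulin-family protein of the apical membrane that binds xanthine oxidoreductase at the surface of the budding droplet and is known for its strong expression in lactation. CD36 encodes a fatty acid translocase and scavenger receptor, which is also made by capillary endothelium, adipocytes, macrophages and platelets. MUC1 encodes a heavily glycosylated transmembrane mucin of the apical surface of many epithelia.

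Values are the authors' log ratios after centring each array on its median, with an exact 0 treated as no ratio. The base of the logarithm is not given in the sources used here, so that 1 unit stands for 2-fold in base 2 and for 2.72-fold in the natural log. The dyes are not given either, and no sign was turned. On the lactating arrays the positive side is likely that of the lactating gland, because 16 of the 17 clones of caseins, whey proteins and lactoferrin lay on it. Several of the 17 are repeats of 1 cDNA, of CSN1S1, CSN2 or PAEP, and are not independent of each other. Lactating RNA was in channel 1 there, whereas the tissues were in channel 2 with the cell line in channel 1. Were the ratio formed alike on every array, the cell line would be on the positive side of the tissue ratios, but this is not stated. The direction of the tissue ratios is unsettled, and with the sign turned each highest tissue below becomes the lowest and each lowest tissue the highest. Pearson correlations between pairs of tissue arrays over spots lay between -0.15 and 0.59. The 2 lactating arrays correlated at 0.62 over spots and at 0.73 over clones. Every member clone had 3 usable spots on every array, 52 values in all. Spots of 1 clone differed by a median SD of 0.124 and 0.172 on the lactating arrays, 0.197 on the postpubertal array and 0.0597 to 0.103 on the tissue arrays. On the arrays of the reference line against itself this SD was 0.102 and 0.306.

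Ratios also followed the order of the rows, in which repeats of 1 cDNA, such as those of ACTB and CSN2, lie side by side. These repeats were kept, and their part in the correlations below was not tested. The correlation between a clone and the next clone in row order was 0.467 on the lymph array, 0.450 on the spleen array, 0.152 to 0.314 on the other tissue arrays, and 0.0601 and 0.0998 on the lactating arrays. At a distance of 48 clones it lay between -0.01 and 0.08 on all 13 arrays. Each member value is therefore also given, where it bears on a result, as its distance from the median of the 24 nearest clones, 12 on each side, a setting chosen after the data were seen.

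The lactating arrays asked which genes differ between the lactating and the prepubertal gland. CD36 was the one member that passed the test there. Its 3 spots read 0.64, 0.85 and 1.07 on lactating array 1 and 1.13, 1.05 and 1.32 on lactating array 2. Every one of these spots lay above all 6 spots of the reference against reference arrays, which read 0.08, 0.28 and 0.23 on array 1 and 0.36, 0.18 and 0.31 on array 2. The clone mean on the lactating arrays was 1.01 ± 0.22 (SD, n = 2 arrays), with values of 0.85 and 1.17. It ranked 56th of 1230 clones from the positive end. In limma across all clones the adjusted p of CD36 was 0.00333, with both arrays on the same side. In that test 8.46% of the clones were called on the positive side and 4.31% on the negative side, and with 4 member clones nothing is read from the share of 1 in 4.

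The CD36 call depended on the setting. The reference line against itself was also positive for CD36, at 0.20 and 0.28, and the lactating arrays minus those arrays gave a difference of 0.77 (adjusted p = 0.173, limma). With exact 0 kept as a ratio it was 0.99 (adjusted p = 0.0824, limma), and the adjusted p was 0.0613 without array 1 and 0.21 without array 2 by limma. The call held in 8 of 12 alternative settings, among them the distance from the nearest clones, at 0.93 (adjusted p = 0.00387, limma). Requiring 1 or 3 spots and averaging by accession are also among the 8. They left the CD36 value at 1.01, because its 1 clone has 3 usable spots, and changed only the other clones in the fit.

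The BTN1A1 clones lay on the positive side of both lactating arrays but did not pass. The clone BE479948 read 0.28, 0.33 and 0.62 on lactating array 1 and 0.20, 0.14 and 0.51 on lactating array 2. On the reference against reference arrays it read -0.02, -0.09 and -0.04, and then -0.16, -0.28 and -0.16. All 6 spots of this clone on the lactating arrays were thus above its 6 spots on the reference against reference arrays. They overlapped its spots on the postpubertal array, at -0.17, 0.36 and 0.38. Its mean was 0.35 ± 0.09 (SD, n = 2 arrays), with an adjusted p of 0.186 by limma, a value that ranged from 0.131 to 0.643 over the 12 alternative settings. The clone BG691504 read 0.05, 0.12 and 0.18 on lactating array 1 and 0.24, 0.34 and 0.44 on lactating array 2, a mean of 0.23 ± 0.16 (SD, n = 2 arrays; adjusted p = 0.414, limma). Its spots on the reference against reference arrays read 0.29, 0.18 and 0.28, and then -0.53, 0.75 and -0.91, which overlap the lactating spots. The second of these arrays had no agreement between the spots of this clone.

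MUC1 did not pass and lay near 0. Its spots read -0.09, 0.06 and 0.04 on lactating array 1 and -0.09, -0.12 and -0.39 on lactating array 2. The mean was -0.10 ± 0.14 (SD, n = 2 arrays; adjusted p = 0.761, limma), and without array 2 it was 0.000809. On the reference against reference arrays the spots read 0.29, 0.28 and 0.10, and then -0.34, -0.16 and 2.48. 1 spot of the last array thus sets the clone mean of 0.66 there, and with it the difference of -0.54 from the reference arrays (adjusted p = 0.325, limma).

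**Figure D1:**
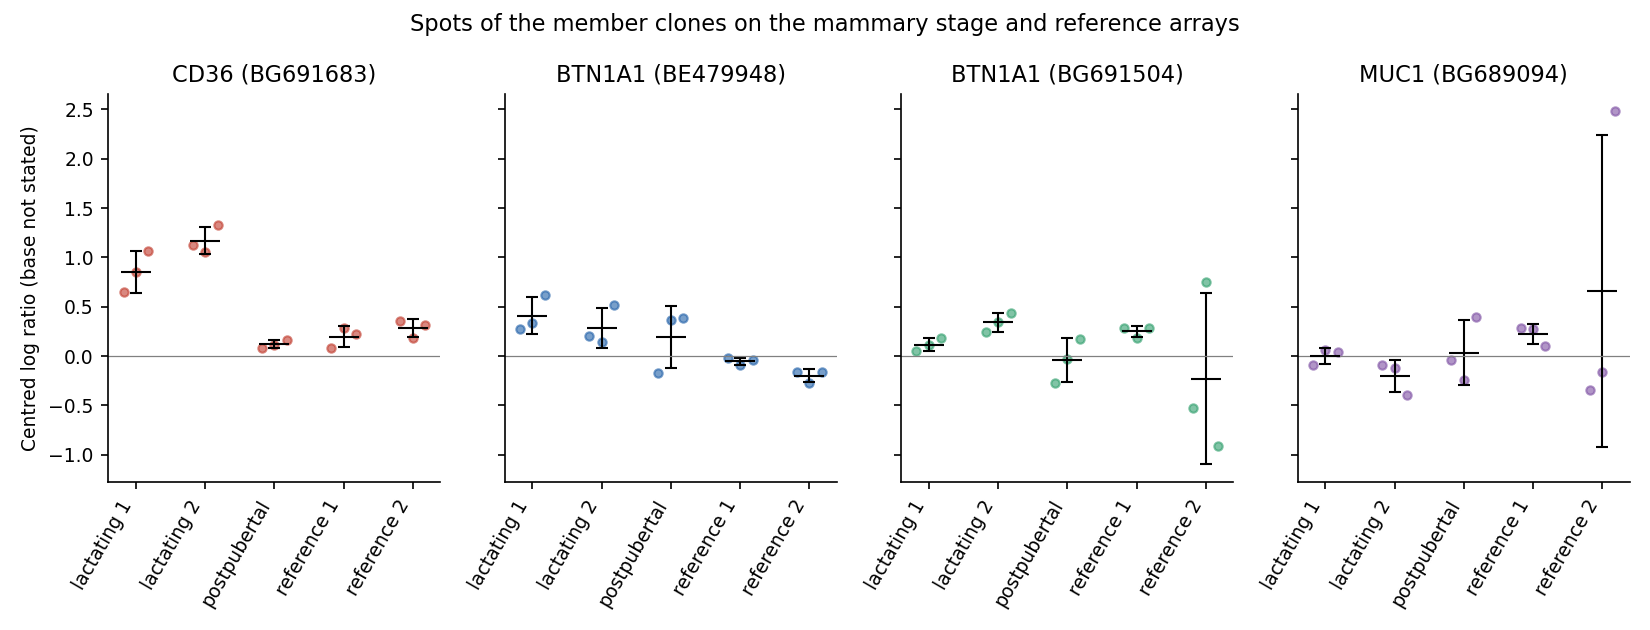
Centred log ratio (vertical axis, base not stated) of the 3 spots of each member clone on the 2 lactating arrays, the postpubertal array and the reference against reference arrays 1 and 2. Points are spots, and bars are the clone mean with the SD over spots. CD36 reads 0.64 to 1.32 on the lactating arrays and at most 0.36 elsewhere, and the MUC1 spot at 2.48 stands alone.

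Both lactating arrays carried lactating RNA in the same channel, so that a dye effect of a clone would not cancel between them. With 2 arrays an exact two-sided sign permutation cannot give a p under 0.5, and limma's p-values rest mostly on a spread pooled over clones. In bulk tissue a change in the share of a cell type and a change in RNA per cell cannot be told apart. Of the lists of cell markers, luminal epithelium had 3 of 8 genes measured, in 5 clones between -0.41 and 0.30 on the lactating arrays with 0 called. Endothelium had 2 of 8 genes measured, in 3 clones between -0.16 and 0.35 with 0 called. The adipocyte, macrophage and platelet and red cell lists had 0 measured genes. Their part in the CD36 result was not tested. No marker lists were drawn up for the other tissues, whose labels were not checked.

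The postpubertal array, whose direction is unknown, had 1 clone at least 1 unit from 0 among the 1228 with a value. CD36 lay at 0.12 ± 0.04 there (SD over 3 spots), below its values on both reference against reference arrays. The spots of the other member clones fell on both sides of 0. BTN1A1 BE479948 had a mean of 0.19 ± 0.32, BTN1A1 BG691504 of -0.04 ± 0.23 and MUC1 of 0.03 ± 0.33.

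Other proteins of the milk fat globule membrane were thinly represented. Of 25 further genes on a list of this membrane, 1 was measured and 0 were called. That gene was RAB18, a small GTPase of lipid droplets, at 0.22 on lactating array 1 and -0.28 on lactating array 2 (mean -0.03 ± 0.35, SD, n = 2; adjusted p = 0.942, limma). Of 10 relatives of butyrophilin 0 were measured. XDH, the partner of butyrophilin, and PLIN2, the coat protein of the droplet, were among the genes with no spot under their symbol.

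CD36 stands at the entry of fatty acids into the cell, and of the list of fatty acid uptake and fat synthesis 6 of 31 genes were measured, in 8 clones. Of the 7 clones with a value on both lactating arrays, 2 were called on the positive side and 0 on the negative side. Over all 1230 clones the shares called were 8.46% and 4.31%. The median of the 7 clones was 0.18, against -0.0061 over all clones. With 7 clones nothing is read from the count or the median. ACSS2, which makes acetyl-CoA from acetate, was called in its clone BE484690, at 2.46 and 2.36 on arrays 1 and 2 (adjusted p = 9.22e-06, limma), a call that held in 12 of 12 alternative settings. Its clone BE588643 was not called, at 0.05 and 0.32. GPAM, which starts glycerolipid synthesis, lay at 0.54 and 0.55 (adjusted p = 0.0487, limma) and kept its call in 2 of 12 alternative settings.

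The other clones of the list did not pass. The clones of SCD, the stearoyl-CoA desaturase, lay at -0.75 ± 1.13 (BE476379) and 0.41 ± 0.08 (BG691658), the first with an SD over spots of 2.46 on array 1. SCD BE476379 was called on the negative side in 2 of 11 alternative settings, at -0.85 on the deposited values (adjusted p = 0.0215, limma) and at -0.88 measured from the nearest clones (adjusted p = 0.0397, limma). Without array 1 it lay at 0.0479. ACSL1, an acyl-CoA synthetase, lay at 0.03 ± 0.10 and ACLY, the ATP citrate lyase, at -0.05 ± 0.52. FABP5, a fatty acid binding protein, read 0.60 ± 0.30 (SD over spots) on lactating array 1 and had no value on array 2.

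Of 10 genes of the CD36 family and its partners, 3 were measured in 4 clones, and 1 clone was called, on the positive side. Over all clones tested 8.46% were called on that side, and with 4 clones nothing is read from this count. SCARB2, the lysosomal member of the CD36 family, lay at -0.77 on lactating array 1 and -0.06 on lactating array 2 (mean -0.42 ± 0.50; adjusted p = 0.201, limma). CD47, a surface protein that like CD36 binds thrombospondin, read 2.47 and 3.64 (adjusted p = 3.27e-05, limma), though it read -1.14 on reference against reference array 1 and had no value on array 2. CAV1 of caveolae lay at 0.35 ± 0.23 and -0.16 ± 0.05 in its clones. Of 21 genes on a list of mucins and glycosylation enzymes, MUC1 aside, only ST6GAL1 was measured. Whether ST6GAL1 acts on mucins here was not tested. This sialyltransferase read 1.63 and 1.69 (mean 1.66 ± 0.04, n = 2; adjusted p = 8.00e-05, limma), and its call held in 11 of 12 alternative settings.

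**Figure D2:**
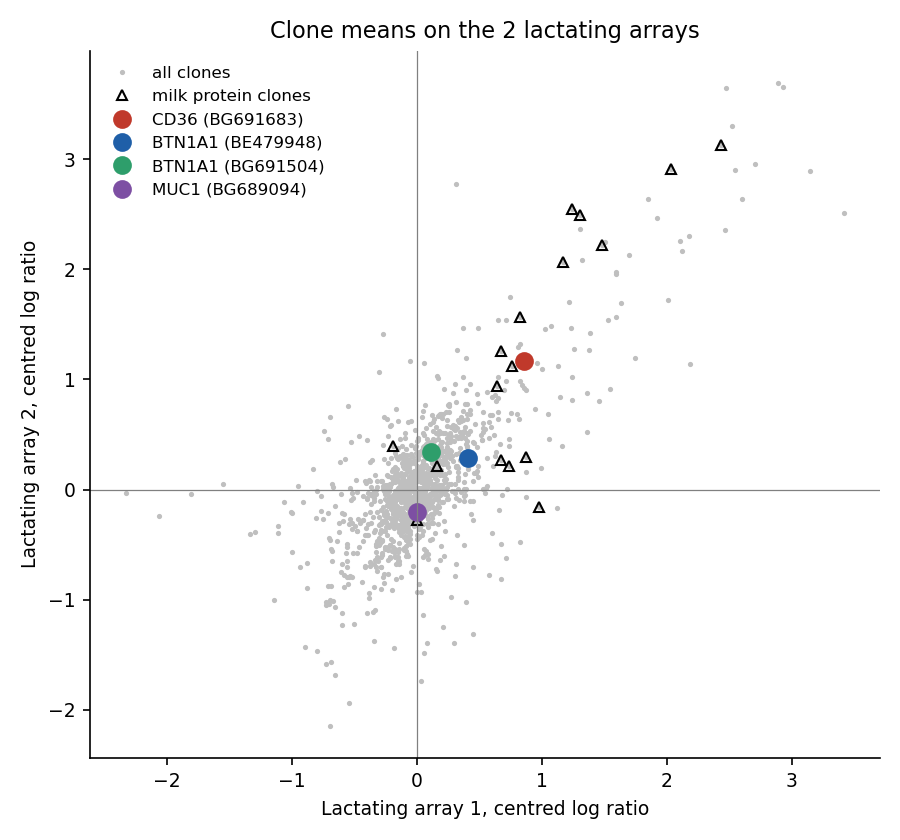
Clone means on lactating array 1 (horizontal axis) against lactating array 2 (vertical axis), both as centred log ratios of unstated base, for the 1230 clones with a value on both. Grey points are all clones, triangles the 17 milk protein clones and coloured points the 4 member clones. CD36 lies at 0.85 and 1.17, and the BTN1A1 and MUC1 clones lie close to the main cloud. The milk protein clones are spread over both regions. A PAEP clone lies at 0.0016 and -0.27, LTF at 0.16 and 0.22, and a CSN1S1 clone at 2.44 and 3.13.

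The tissue arrays asked which genes differ between tissues, with 1 array for each, so no test was possible and the spread is that of spots. Across the 1216 clones with a value on all 8 arrays, 9.13% lay at least 1 unit from 0 on at least 1 array, and 0 of the 4 member clones did. The median range between the highest and the lowest tissue was 0.559 over those clones. BTN1A1 BG691504 had a range of 0.949, at the 84.0th percentile of all clones. CD36 had 0.559 (50th percentile), MUC1 0.431 (26.2nd percentile) and BTN1A1 BE479948 0.348 (12.7th percentile).

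CD36 had its most positive ratio in ileum. Its clone means were 0.53 ± 0.10 in ileum (SD over 3 spots), 0.32 ± 0.09 in prepubertal mammary gland, 0.20 ± 0.09 in adipose tissue, 0.16 ± 0.05 in liver and 0.13 ± 0.09 in thymus. Lymph tissue followed at 0.04 ± 0.01, spleen at -0.02 ± 0.11 and adrenal tissue at -0.03 ± 0.05. The ileum spots lay above all spots of the mammary array, by 0.21 between the means. No other pair of neighbours in this order had spots that did not overlap. The reference line against itself gave 0.20 and 0.28 for CD36, and only the ileum and mammary means exceeded both. On the ileum array the 24 nearest clones also had a positive median, of 0.18, which leaves 0.34 for CD36, still the highest of the tissues. Scaled to the same spread, the ileum, mammary and adipose arrays gave 0.357, 0.356 and 0.356, and ileum no longer stood apart. The ileum array was the most dispersed of the 8, with an SD over clones of 0.561 against 0.183 to 0.293 on the others.

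BTN1A1 BG691504 was set apart in the prepubertal mammary gland. Its spots read 0.88, 0.84 and 1.04 there, a mean of 0.92 ± 0.10 (SD over 3 spots), the 19th most positive of 1254 clones on that array. Thymus followed at 0.30 ± 0.06, ileum at 0.21 ± 0.05, lymph tissue at 0.19 ± 0.07, liver at 0.16 ± 0.03 and spleen at 0.14 ± 0.09. Adrenal tissue was at -0.003 ± 0.12 and adipose tissue at -0.03 ± 0.04. The mammary spots lay above all thymus spots, while in the rest of this order the spots of neighbouring tissues overlapped. The reference line against itself gave 0.25 and -0.23 for this clone, the latter with an SD over spots of 0.87. The margin of the mammary gland over the next tissue was 0.61 units, the 17th largest of 1216 clones. Measured from the nearest clones, whose median on the mammary array was 0.19, the margin was 0.50, the 28th largest of 1216. This margin, like those of the other clones, was chosen after the values were seen. On the lactating arrays the same clone did not pass.

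BTN1A1 BE479948, in contrast, had a negative mean on all 8 tissue arrays, though in ileum and liver the sign depended on the setting. The ileum value was 0.0179 on the deposited values, 0.00629 with exact 0 kept and 0.0288 when measured from the nearest clones, and the liver value was 0.0422 in the last of these. It was lowest in the lymphoid organs, at -0.36 ± 0.11 in lymph tissue, -0.32 ± 0.06 in spleen and -0.28 ± 0.23 in thymus (SD over 3 spots). Prepubertal mammary gland followed at -0.14 ± 0.02, adipose tissue at -0.10 ± 0.09, adrenal tissue at -0.05 ± 0.03, liver at -0.04 ± 0.02 and ileum at -0.01 ± 0.03. The spots of every pair of neighbours in this order overlapped. The reference line against itself gave -0.05 and -0.20 for this clone. In lymph tissue and spleen the nearest clones were low as well, with medians of -0.22 and -0.26, and the distance of BE479948 from them was -0.14 and -0.06. In thymus the nearest clones had a median of -0.01 and the distance was -0.27.

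MUC1 was lowest in thymus and close to 0 elsewhere. It lay at 0.16 ± 0.04 in prepubertal mammary gland, 0.15 ± 0.03 in adrenal tissue, 0.15 ± 0.17 in ileum, 0.11 ± 0.06 in spleen, 0.06 ± 0.21 in liver and 0.02 ± 0.02 in lymph tissue. Adipose tissue followed at -0.06 ± 0.01 and thymus at -0.27 ± 0.10. The lymph spots lay above all adipose spots and these above all thymus spots, while the other neighbours overlapped. The reference line against itself gave MUC1 values of 0.22 and 0.66, above every tissue mean. The latter had an SD over spots of 1.58. The tissue with the highest MUC1 ratio depended on the setting, mammary gland, ileum or adrenal tissue, whereas thymus was lowest in every setting tried. The thymus margin below the next tissue was 0.21, the 35th largest of 1216 clones, and 0.15 when measured from the nearest clones.

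**Figure D3:**
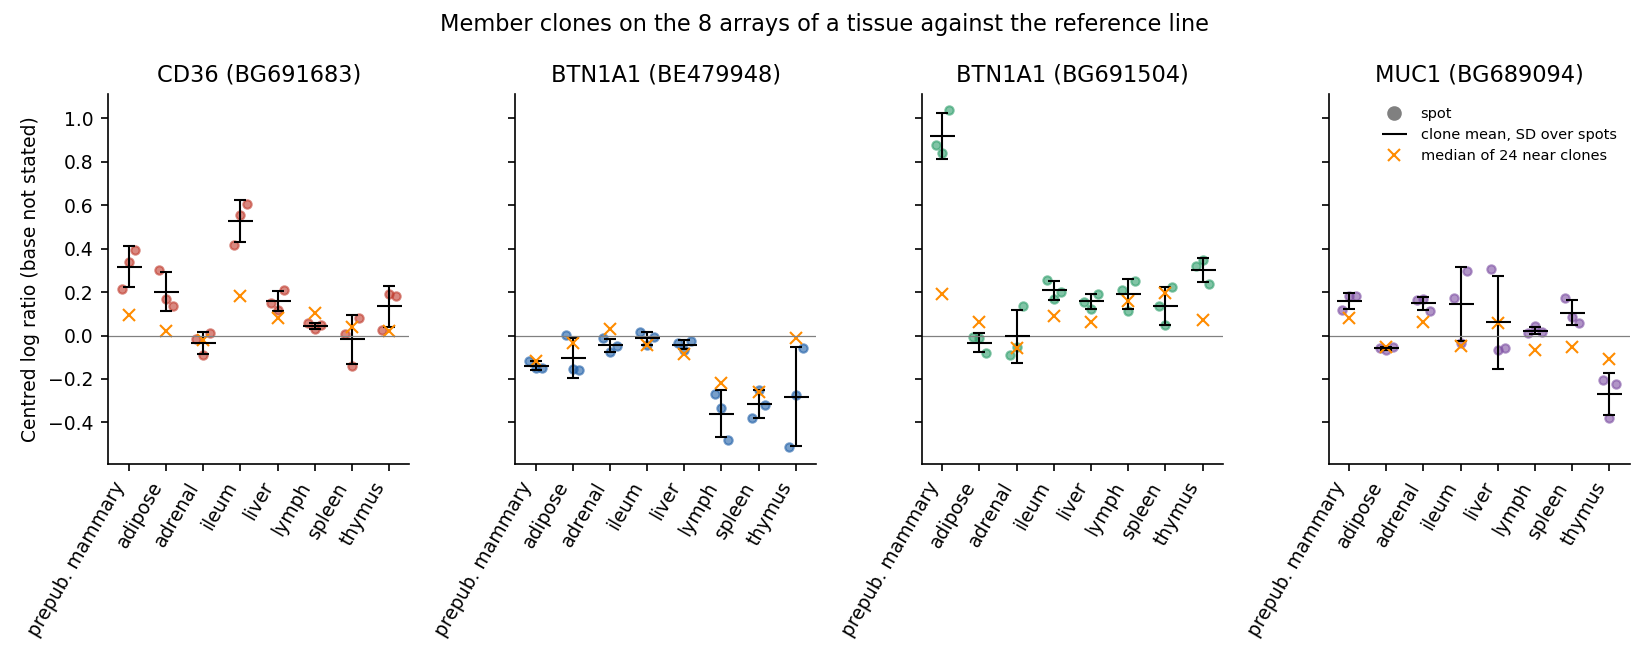
Centred log ratio (vertical axis, base not stated) of the member clones on the 8 arrays of a tissue against the reference line. Points are spots, bars the clone mean with the SD over 3 spots, and crosses the median of the 24 nearest clones in row order. BTN1A1 BG691504 reads 0.92 on the prepubertal mammary array and at most 0.30 on the others.

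The 2 clones of BTN1A1 were furthest apart in prepubertal mammary gland and thymus, a comparison chosen after their values were seen. BG691504 lay above BE479948 on 8 of 8 tissue arrays, by 1.06 in prepubertal mammary gland, 0.58 in thymus, 0.55 in lymph tissue, 0.45 in spleen, 0.22 in ileum and 0.20 in liver. On these 6 arrays all spots of BG691504 were above all spots of BE479948. In adipose and adrenal tissue the differences were 0.07 and 0.04, and spots overlapped. Measured from the nearest clones, BG691504 lay above BE479948 on 6 of the 8 arrays. The difference was then 0.75 in prepubertal mammary gland, 0.50 in thymus, 0.17 in lymph tissue, 0.13 in adrenal tissue, 0.09 in ileum and 0.05 in liver. It was -0.0026 in spleen and -0.03 in adipose tissue, so the order on 8 of 8 arrays and the size in lymph tissue and spleen depended on this setting. All 8 arrays share the reference line, so they do not repeat the difference independently. On lactating array 1 the order was turned, with a difference of -0.29, and on lactating array 2 it was 0.06. On reference against reference array 1, where both channels held the same line, BG691504 lay above BE479948 by 0.30, with spots that did not overlap, and on array 2 the difference was -0.03.

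Across the 8 tissue arrays the 2 BTN1A1 clones correlated at a Pearson r of -0.09. Among the 63 genes with 2 clones of different accessions the median r was 0.08, so low agreement between clones was common on this platform. Their mean absolute difference of 0.397 was the 5th largest of the 63, whose median was 0.226, and BTN1A1 was 1 of 4 genes whose clones kept the same order on all 8 arrays. Measured from the nearest clones, its mean absolute difference was 0.215, the 28th largest of the 63, whose median was 0.202, and its clones kept the same order on 6 arrays. The r of the BTN1A1 clones was then 0.05, against a median of 0.13.

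**Figure D4:**
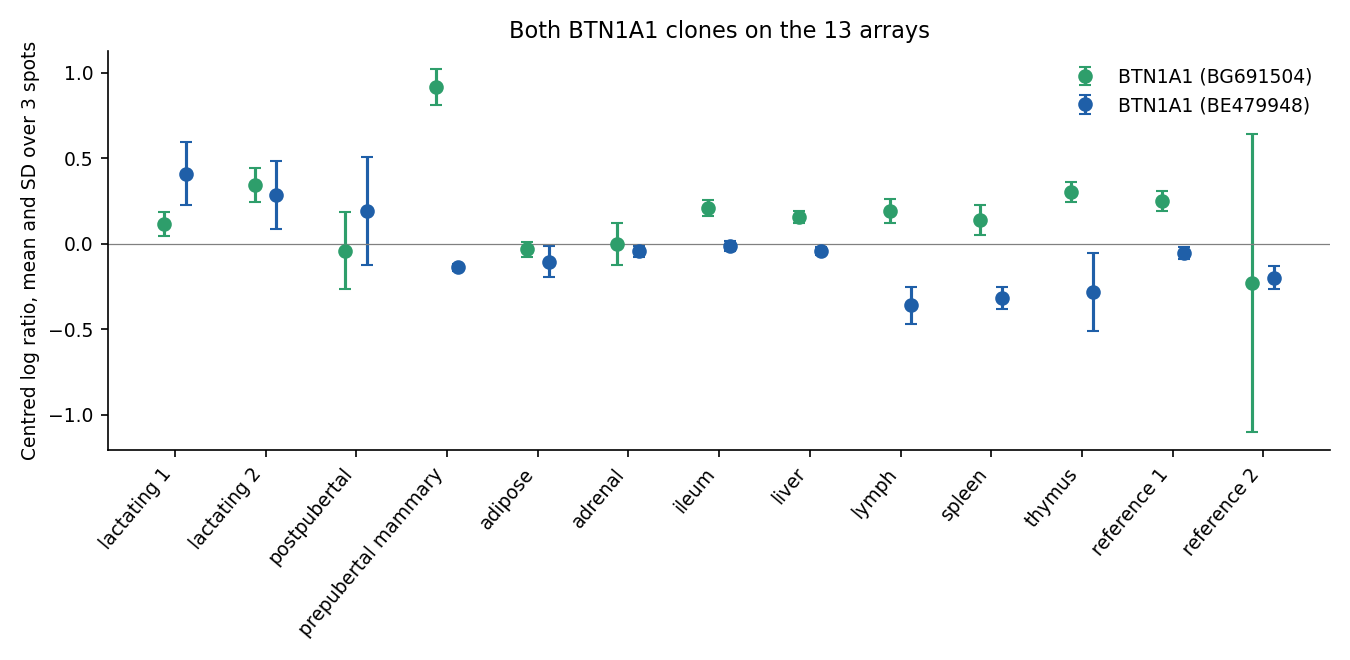
Mean centred log ratio of the BTN1A1 clones BG691504 and BE479948 on the 13 arrays (vertical axis, base not stated), with the SD over 3 spots. The ticks named reference 1 and 2 are the reference against reference arrays. The clones differ by 1.06 on the prepubertal mammary array and by 0.06 on lactating array 2.

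Clones with a like pattern were ranked by Pearson r over the 8 tissue arrays, among 833 clones of a single named gene for CD36 and for MUC1 and 832 for each BTN1A1 clone. These values describe 8 points that share 1 reference line. With so many clones and 8 points, high values are easily found.

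The clone nearest to CD36 was ACSL5, an acyl-CoA synthetase that activates long-chain fatty acids (r = 0.96, and 0.93 without ileum). Another clone of ACSL5 correlated with this one at only 0.42 over the tissue arrays. The clone near CD36 read 0.58 ± 0.04 in ileum and 0.43 ± 0.09 in prepubertal mammary gland (SD over 3 spots). On the lactating arrays, which the ranking did not use, it read 0.37 and 1.46 (mean 0.92 ± 0.77; adjusted p = 0.0317, limma), with a call in 4 of 12 alternative settings. ZC3H7A (r = 0.90, and 0.82 without ileum) came next, at 0.40 and 0.39 on the lactating arrays (adjusted p = 0.131, limma). It had a call in 1 of 12 alternative settings, at 0.56 measured from the nearest clones (adjusted p = 0.0410, limma). The exchange factor NET1 (r = 0.90) had an r of 0.76 without ileum and of 0.73 measured from the nearest clones. NET1 lay on the other side of the lactating arrays, at -1.11 and -0.40 (adjusted p = 0.0317, limma), with a call in 4 of 12 alternative settings.

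For BTN1A1 BG691504 the nearest clones were CLDND1 (r = 0.99), 1 of the 3 clones of CSN2, the beta-casein gene (r = 0.99), and TMEM150A (r = 0.98). They read 0.93 ± 0.09, 0.87 ± 0.56 and 1.04 ± 0.21 on the prepubertal mammary array, and without that array r was 0.96, 0.90 and 0.89. The other CSN2 clones, which carry the same accession and were looked up after this ranking, had an r of 0.20 and -0.11 with BG691504 and read 0.46 ± 0.07 and -0.06 ± 0.05 on the mammary array. For BTN1A1 BE479948 the nearest were KERA, a proteoglycan of the cornea (r = 0.97), the signalling kinase IRAK4 (r = 0.94) and the protease BLMH (r = 0.93). Measured from the nearest clones in row order, r was 0.64, 0.74 and 0.96 for these. BLMH itself lies close to BE479948 in row order, so both were measured from nearly the same clones. Its r of 0.96 therefore cannot tell a shared pattern from a shared place. For MUC1 they were the proteasome subunit PSMC2 (r = 0.94), CRISP3 (r = 0.92) and TUT7 (r = 0.88), with 0.81, 0.78 and 0.74 measured from the nearest clones. Another clone of PSMC2 correlated with the one near MUC1 at -0.44 over the tissue arrays.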

How the data were processed

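Members, gene lists and tests were chosen with earlier results of these data known. The deposited table gave the authors' log ratio score per spot. The sources used here do not give the authors' background correction, log base, channel order or normalization. Spots were named through the platform annotation, and 3 of 3 members were found under the same symbol in RefSeq (assembly ARS-UCD2.0). Exact 0, found for 0 of 156 member values, was treated as missing, arrays were centred on their medians, and the spots of a clone were averaged with a minimum of 2. The mean of the lactating arrays was tested against 0 across all 1230 clones with a value on both, repeats of 1 cDNA included, by lmFit and eBayes of limma 3.58.1 (R 4.3.3), with 8.421 prior and 1 residual degrees of freedom and Benjamini-Hochberg adjustment at 0.05. The limma script was tested on simulated data. Tissue arrays, 1 for each tissue, had no test. The text names all member clones, measured genes of the fixed lists, and for each member clone the 3 most correlated clones. Python 3.11.15, numpy 2.4.6 and pandas 2.3.3 did the rest. The alternatives tried were the deposited values without centring, exact 0 kept, arrays scaled to the same median absolute deviation (MAD), 1 or 3 spots required, the median of spots, averages by accession, the reference against reference arrays as a source of spread or in contrast, and each lactating array left out. Distances from near clones were added after the data were seen. The number of arrays limits the precision, and intensities were not used here.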

Additional observations from a re-analysis of the deposited data

How the results depend on the processing

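The number of clones called on the lactating arrays depended on the setting. It was 157 (66.2% on the positive side), with 338 at an unadjusted p under 0.05. It fell to 28 with exact 0 kept, 68 with arrays scaled to the same MAD, 65 where the spread included the reference against reference arrays, and 22 for the difference from those arrays. The share on the positive side was 44.0% of 225 calls on the deposited values and 80.9% with MAD scaling. Leaving out 1 lactating array, with the spread taken from the reference arrays and the remaining array assumed to vary like them, gave 14 to 48 calls, 14 without array 2.

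CD36 kept its side in all settings. It passed in 8 of 12 and did not pass at 0.99 (exact 0 kept), at 0.77 (contrast with the reference arrays) and at 0.85 to 1.17 with 1 array left out. With MAD scaling it was 0.69 and passed. The settings on the number of spots and the averages by accession left CD36 at 1.01, ACSS2 BE484690 at 2.41 and ST6GAL1 at 1.66. For these clones such settings changed only the rest of the fit. Neither BTN1A1 clone nor MUC1 passed in any of the 12 settings. MUC1 lay at -0.20 to 0.000809 with 1 array left out. Among clones that did not pass, signs turned for RAB18 (0.0086 with MAD scaling, 0.0578 in the contrast, -0.28 to 0.22 with 1 array left out), for ACSL1 (-0.0687 on the deposited values, -0.0025 in the contrast, -0.0455 from near clones, -0.0397 to 0.0978 with 1 array left out) and for ACLY (0.0121 with MAD scaling, 0.14 from near clones, -0.41 to 0.32 with 1 array left out). They also turned for SCD BE476379 (-1.55 to 0.0479 with 1 array left out) and CAV1 BE484461 (0.11 in the contrast). The causes were not tested.

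On the tissue arrays the count of member values at least 1 unit from 0 was 0 of 32, and 1 with MAD scaling, BTN1A1 BG691504 in mammary gland at 1.03. Of 160 recomputed tissue values 125 moved by less than the SD over spots. 20 of the 35 others came from measuring clones against near clones, and 12 values changed sign, none of them over 0.14 in size before. Each lactating array compared lactating with prepubertal RNA on the same array. This pairs the RNA samples by array and not by animal.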
